A study of Mus musculus with 2 samples.

Results

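The cells described here are *MLL-AF9* mouse leukemia cells chosen by their own transcript counts. A cell with 500 or more detected genes was taken when it held 2 or more unique molecular identifiers (UMIs, each standing for 1 captured transcript) of *Gal* and *Cdkn1c* together, at least 1 of them from *Gal*. The rule found 353 of 7411 cells, 216 of 3866 in the *Kat2a* WT-labelled library and 137 of 3545 in the *Kat2a* KO-labelled library. These are called the *Gal* and *Cdkn1c* cells, or members, and the remaining 3650 and 3408 cells are called the other cells.

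All donor mice were homozygous for a floxed *Kat2a* allele, which encodes a histone acetyltransferase, and all received pIpC, which induces the Mx1-Cre recombinase in mice that carry it. Donors of the WT leukemias were Mx1-Cre -/- and donors of the KO leukemias were Mx1-Cre +/-. Marrow taken 4 to 6 weeks later was transformed with an *MLL-AF9* retrovirus and grown in lethally irradiated recipients. Frozen leukemia cells of both groups were thawed, pooled by genotype (5 WT and 4 KO leukemias), sorted as live YFP-positive single cells and captured with a 10x Genomics 3′ kit. Mx1-Cre is driven by an interferon-responsive promoter and is not confined to blood cells, the individual leukemias of a pool carry no label, and there was 1 library per genotype. Differences between genotypes have no replicate check for this reason. All intervals are 95% intervals and cover counting error only.

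Galanin, the product of *Gal*, is a secreted neuropeptide that signals through G-protein-coupled receptors and is best known from neurons and endocrine cells. *Cdkn1c* encodes p57, an inhibitor of cyclin-dependent kinases that is expressed from the maternal allele of an imprinted region and is known in marrow for its part in the quiescence of hematopoietic stem cells. Granulocytes mature through ordered stages, in which primary granule enzymes such as myeloperoxidase come first, secondary granule proteins such as *Ngp* and *Camp* follow, and *Mmp8* and *Retnlg* belong to later neutrophils.

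In GENCODE M21 (GRCm38) *Gal* lies at chr19:3409915-3414544 on the minus strand and *Cdkn1c* at chr7:143458339-143461050 on the minus strand, both protein coding. *Dusp2*, a phosphatase of MAP kinases, lies at chr2:127336159-127338376 on the plus strand, and *Tnf*, the inflammatory cytokine, at chr17:35199381-35202007 on the minus strand. These last genes had been put forward with *Gal* and *Cdkn1c* as markers of the cells. The 250 bases before the start of *Gal*, *Dusp2* and *Tnf* are shown because the 3 genes share a marker label; they come from RefSeq (GRCm38.p6), are written 5′ to 3′ on the gene's strand, and have in capitals every match to the loose kB motif (GGG, any 5 bases, CC) on either strand. The *Gal* window is chr19:3414545-3414794 (minus), the *Dusp2* window chr2:127335909-127336158 (plus) and the *Tnf* window chr17:35202008-35202257 (minus).
Gal: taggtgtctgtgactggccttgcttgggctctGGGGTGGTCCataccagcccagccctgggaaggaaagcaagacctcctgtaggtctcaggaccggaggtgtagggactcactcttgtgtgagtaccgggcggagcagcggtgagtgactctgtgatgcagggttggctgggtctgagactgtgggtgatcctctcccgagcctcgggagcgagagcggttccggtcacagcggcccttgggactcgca
Dusp2: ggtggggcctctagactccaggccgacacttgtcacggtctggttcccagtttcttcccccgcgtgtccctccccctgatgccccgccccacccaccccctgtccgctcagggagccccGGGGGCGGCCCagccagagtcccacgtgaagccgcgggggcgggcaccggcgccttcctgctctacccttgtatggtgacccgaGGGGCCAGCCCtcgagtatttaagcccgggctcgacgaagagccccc
Tnf: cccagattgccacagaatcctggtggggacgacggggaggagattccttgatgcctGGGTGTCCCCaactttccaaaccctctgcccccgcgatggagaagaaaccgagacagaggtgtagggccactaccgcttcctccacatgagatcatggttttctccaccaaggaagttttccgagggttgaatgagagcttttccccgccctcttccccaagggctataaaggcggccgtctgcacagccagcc
The *Gal* window held 1 kB match, the *Dusp2* window 4 (2 overlapping pairs) and the *Tnf* window 1. Such a match stood in 45.8% of 32851 promoter windows of the same length. None of the 3 windows held the AP-1 motif TGANTCA (6.75% of all windows), the CRE motif TGACGTCA (1.55%) or its core TGACG (17.8%). The loose SRE pattern (CC, any 6 bases, GG) matched 3, 3 and 2 times and stood in 67.1% of windows. The windows therefore shared only motifs that are common to a large share of promoters.

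Several facts of the whole series bear on the cells. The WT-labelled library held 11892536 UMIs and the KO-labelled library 8585416, and 28 barcode sequences occurred in both libraries. *Kat2a* itself went against the labels, at 12.2 counts per 1000000 UMIs (CPM) in the other cells of the WT-labelled library and 96.3 CPM in those of the KO-labelled library. In members it stood at 11.3 CPM (9 UMIs) and 85.5 CPM (29 UMIs), and by the study's description of the allele the 3′ end of the transcript lies outside the excised region, so the level does not check excision. The pools also differed in sex-linked transcripts. *Xist*, the RNA of X inactivation, was detected in 42.1% of members and 42.2% of other cells of the WT-labelled library, against 11.7% and 13.03% in the KO-labelled library. A Y-linked gene was detected in 1.85% and 2.74% of cells in the former and in 19.7% and 16.1% in the latter. Sex-linked transcripts were thus detected in members at about the share of the pool they came from. By level *Xist* was lower in WT-labelled members, at 208 against 280 CPM, a log2 ratio of -0.43 (-0.66 to -0.20). Against cells matched on total UMIs it stood at -0.36 (-0.66 to -0.06). In the KO-labelled library the ratio to all other cells was -0.14 (-0.72 to 0.38).

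Members held few UMIs of the genes that chose them. In the WT-labelled library a member had 1 to 8 UMIs of *Gal* (median 2) and 0 to 9 of *Cdkn1c* (median 1). In the KO-labelled library the range was 1 to 16 for *Gal* (median 2) and 0 to 8 for *Cdkn1c* (median 0), and the cell with 16 *Gal* UMIs was also the one with 8 of *Cdkn1c*. *Gal* summed to 574 CPM in WT-labelled members and 866 CPM in KO-labelled members, values fixed by the rule. Members held 65.6% of all *Gal* UMIs of kept cells in the first library and 61.1% in the second, and 18.4% and 14.3% of all *Cdkn1c* UMIs. Their share of the UMIs of all genes was 6.83% and 4.28%, and the rule takes in every kept cell with both genes. Just inside the rule, 103 WT-labelled and 86 KO-labelled members had exactly 2 UMIs. Just outside it, 240 and 187 cells had 1 *Gal* UMI and no *Cdkn1c*. Most *Cdkn1c* transcripts were thus in cells without *Gal*, and a large part of the members sat at the threshold.

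**Figure D1:**
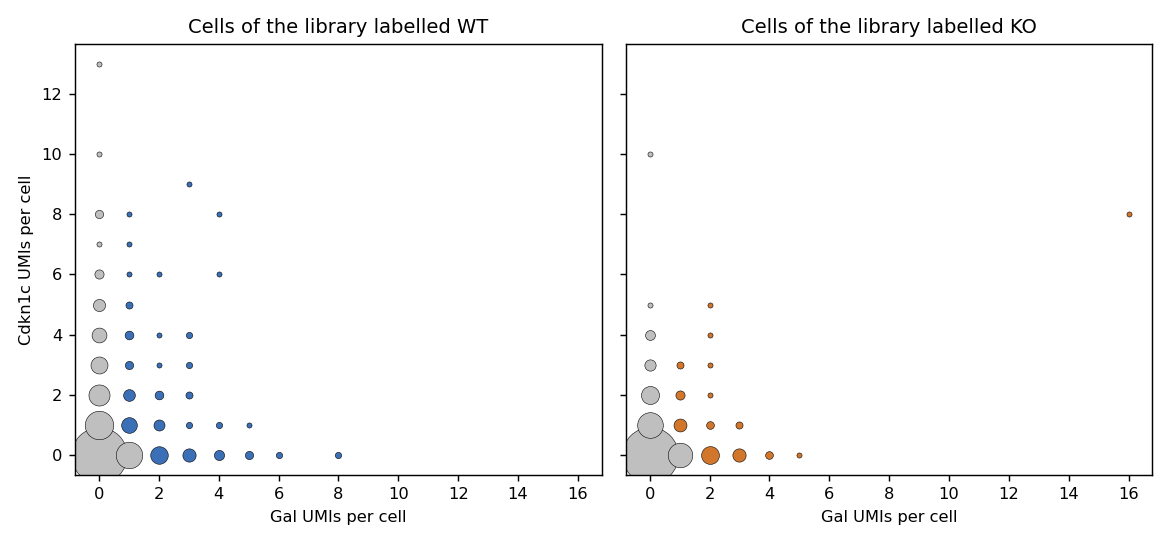
*Gal* UMIs (x axis) against *Cdkn1c* UMIs (y axis) per kept cell, 1 panel per library, with circle area rising with the number of cells and coloured circles for members. Most members lie along the *Gal* axis or within a few UMIs of the origin, and 1 cell of the KO-labelled library stands apart at 16 and 8 UMIs.

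The 2 genes were found in the same cell about as often as their separate frequencies gave, within counting error, once depth was equal. At own depth, *Cdkn1c* was detected in 112 of 456 WT-labelled cells with *Gal* (24.6%, exact binomial interval 20.7 to 28.8%) and in 15.9% of 3410 cells without it (14.7 to 17.2%). In the KO-labelled library the shares were 44 of 324 (13.6%, 10.0 to 17.8%) and 9.59% of 3221 (8.60 to 10.7%). After thinning to 1000 UMIs per cell (66 and 194 shallower cells drop out), they became 7.95% (4.42 to 12.99%) and 8.28% (7.40 to 9.22%) in the first library, and 7.39% (4.19 to 11.9%) and 5.56% (4.78 to 6.42%) in the second. The higher co-detection at own depth was accompanied by a higher depth of members, at a median of 3296.5 UMIs against 2558.5 in other cells of the WT-labelled library and 1977 against 1884 in the KO-labelled library. Members with both genes numbered 112 of 216 (51.9%) and 44 of 137 (32.1%).

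The share of cells that met the rule was 5.59% (4.88 to 6.36%) in the WT-labelled library and 3.86% (3.25 to 4.55%) in the KO-labelled library. This order does not hold at equal depth. With each cell thinned to 1000 UMIs the shares were 1.08% (0.775 to 1.46%) and 1.49% (1.11 to 1.96%), and the KO-labelled library was the higher. *Gal* itself made up 59.7 CPM (55.4 to 64.3) of all kept cells of the WT-labelled library and 60.7 CPM (55.4 to 66.4) of the KO-labelled library, intervals that overlap almost wholly. *Cdkn1c* made up 109 CPM (103 to 115) and 65.4 CPM (59.9 to 71.3). No order of the libraries in these cells is read from the share.

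*Gal* counts were not spread evenly over cell types. In the 386 and 354 cells with the highest share of monocyte and macrophage transcripts, a branch whose transcripts were low in members, *Gal* was detected in 1.55% (0.573 to 3.35%, median depth 1557 UMIs) and 1.41% (0.460 to 3.27%, median 1312.5 UMIs). In the same number of cells with the highest granulocyte share it was detected in 17.4% (13.7 to 21.5%, median 2071 UMIs) and 16.9% (13.2 to 21.3%, median 1825 UMIs). As levels these were 10.2 and 9.57 CPM in the former against 113 and 126 CPM in the latter. The monocyte cells were also the shallower. *Gal* UMIs were also present in called cells with under 500 genes, at 76.2 CPM (44.4 to 122) and 69.2 CPM (50.6 to 92.2).

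Members leaned to the granulocyte side of the leukemia. The 22 genes of a granulocyte list made up 161073 CPM of WT-labelled members and 111554 CPM of WT-labelled other cells, a log2 ratio of 0.53 (0.52 to 0.54). In the KO-labelled library they made up 163974 CPM of members and 98574 CPM of other cells, a log2 ratio of 0.73 (0.72 to 0.75). Per cell the list took a median of 18.1% of UMIs in WT-labelled members, from 0.275% to 51.3%, and 7.53% in the other cells. In KO-labelled members it took a median of 16.7%, from 0.408% to 38.1%, against 5.26%. Members were above the median other cell in 179 of 216 (82.9%, 77.2 to 87.6%) and 112 of 137 (81.8%, 74.3 to 87.8%). The lowest values show that the rule also picked cells with little granulocyte RNA.

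The genes of that list did not move together. The list had 20 genes with an expected count of 5 or more UMIs in both libraries. Of these, 2 were 1.5-fold or more higher in both (*Ngp* and *S100a9*) and 2 were 1.5-fold or more lower (*Mmp8* and *Retnlg*). Over all 5270 genes tested, 0.626% were higher by that much in both libraries and 5.96% lower. With so few genes, the lower count is not read as a result about the list. The median log2 ratio of the 20 was 0.29 in the WT-labelled library and 0.72 in the KO-labelled library, against -0.09 and -0.15 over all 5270 genes tested. *Ngp*, a secondary granule protein, stood at log2 ratios of 0.69 (0.67 to 0.71) and 0.75 (0.73 to 0.77). *Camp*, the cathelicidin precursor, stood at 0.58 (0.55 to 0.60) and 0.80 (0.77 to 0.83). *S100a9*, a subunit of calprotectin, stood at 0.70 (0.68 to 0.72) and 0.86 (0.82 to 0.90). *Cd177*, a neutrophil surface protein, stood at 0.56 and 0.77, and *Cebpe*, the transcription factor of the secondary granule stage, at 0.25 and 0.47. *Mmp8*, neutrophil collagenase, was lower, at -1.54 (-2.22 to -0.93) and -1.26 (-2.89 to -0.02), and so was *Retnlg*, a transcript of mature neutrophils, at -2.86 (-3.99 to -1.93) and -1.04 (-2.001 to -0.22). *Ltf*, lactoferrin, differed in sign, at -0.45 in the WT-labelled library and 0.29 in the KO-labelled library. Of the genes past 1.5-fold in both libraries, *Ngp* and *S100a9* were thus higher and *Mmp8* and *Retnlg* lower.

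The primary granule list was nearly level. Its 12 genes gave log2 ratios of 0.07 (0.04 to 0.09) and 0.02 (-0.01 to 0.06), and none was 1.5-fold or more higher in both libraries. Over all genes tested, 0.626% were higher and 5.96% lower by that much in both. *Elane*, neutrophil elastase, was higher at 0.28 and 0.19 and *Ms4a3*, a gene of granulocyte-monocyte progenitors, at 0.51 and 0.41. *Mpo*, myeloperoxidase, was lower at -0.15 and -0.23, and *Ctsg*, cathepsin G, at -0.58 and -0.28. *Cst7*, a cysteine protease inhibitor, was the 1 gene lower by 1.5-fold in both, at -0.80 and -2.18 on 16 and 3 UMIs.

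Both rule genes followed the granulocyte share of the cell, in different ways. Kept cells of each library were ordered by that share and cut into 10 bins of equal size. *Gal* went from 8.38 CPM (bin 1) to 48.2 CPM (bin 5) and 113 CPM (bin 10) in the WT-labelled library and from 3.77 to 64.6 and 126 CPM in the KO-labelled library. *Cdkn1c* went from 14.2 CPM in bin 1 to 217 CPM in bin 7 and back to 113 CPM in bin 10 of the WT-labelled library. For the KO-labelled library it went from 5.66 CPM to 142 CPM in bin 8 and 70.2 CPM in bin 10. *Gal* was therefore highest in the cells with the most granulocyte transcripts, while *Cdkn1c* had its highest level before them. *Ltf*, a gene of the later secondary granule stage, was at 95.4 CPM in bin 7 and 2283 CPM in bin 10 of the WT-labelled library. *Ltf* is itself in the granulocyte list that orders the bins, so its rise is partly set by the ordering and gives no separate reading of stage. Members made up 0.775% of bin 1, 9.56% of bin 6 and 8.55% of bin 10 in the WT-labelled library, and 0, 5.37% and 7.06% in the KO-labelled library (0 of 355 cells in bin 1, exact binomial interval up to 1.03%).

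**Figure D2:**
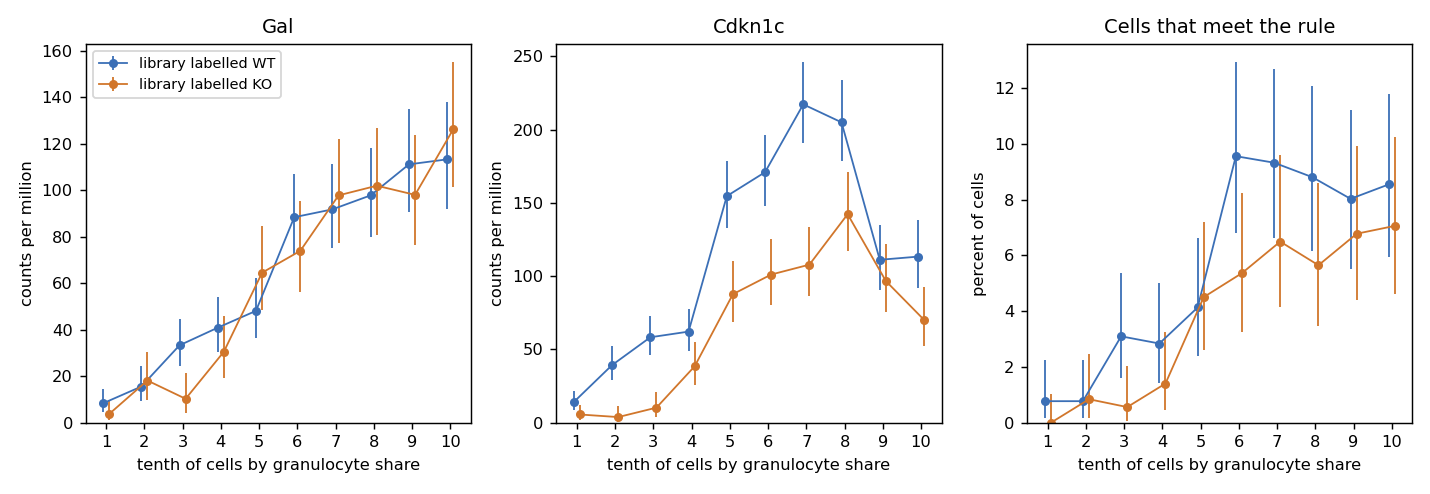
Summed *Gal* and *Cdkn1c* level in CPM (left and middle) and the percent of cells that meet the rule (right) in 10 equal bins of kept cells ordered by the granulocyte share of UMIs, with 95% counting intervals. *Gal* reaches 113 and 126 CPM in bin 10, with intervals that overlap those of bin 7, whereas *Cdkn1c* is highest at 217 CPM in bin 7 of the WT-labelled library and 142 CPM in bin 8 of the KO-labelled library.

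Genes of several other lineages were low in members. The 13 tested monocyte genes were lower by 1.5-fold or more in both libraries in 9 cases. Over all 5270 genes tested, 5.96% were lower by that much in both libraries, the share to set beside each count here. The monocyte list stood at log2 ratios of -1.09 (-1.19 to -1.001) and -1.09 (-1.24 to -0.95). *Irf8*, the transcription factor of the monocyte branch, was at -2.36 and -3.61, and *Ctss*, cathepsin S, at -2.86 and -2.77. The macrophage list stood at -1.37 and -1.44, with *Apoe* at -2.25 and -2.40 and *Cd68* at -1.13 and -1.15. The MHC class II list stood at -1.12 and -2.46, with 5 of 6 tested genes lower in both, and at -0.11 (-0.47 to 0.26) and -0.89 (-1.34 to -0.45) against cells matched on depth and granulocyte share. *Cd74*, the invariant chain, had 0 UMIs in WT-labelled members, at least 15-fold lower than in other cells with a floor of 3 counts per library, and 10 UMIs in KO-labelled members (log2 ratio -4.14). These ratios rested on few cells. *Cd74* was detected in 1.56% of WT-labelled other cells, and their depth-matched cells held 3 UMIs. In the KO-labelled library it was detected in 5.84% of members and 9.18% of other cells. Basophil and mast cell genes stood at -2.36 and -2.76 and erythroid genes at -2.56 and -3.37. The erythroid ratio rested on few cells: *Hba-a1* was detected in 0.463% of WT-labelled members and in 0.466% of the other cells, whose 473 UMIs lay in those few. Against cells matched on depth and granulocyte share, erythroid genes stood at 1.07 (0.25 to 1.94) and 0.99 (-0.17 to 2.25), the opposite sign, and basophil and mast cell genes at -0.87 (-1.82 to 0.03) and -0.64 (-1.88 to 0.54). Of 8 tested chemokines and cytokines 6 were lower, among them *Ccl3* at -1.16 and -1.25 and *Ccl9* at -2.22 and -3.37.

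The eosinophil list stood at a log2 ratio of 2.21 in the WT-labelled library and -1.70 in the KO-labelled library, and the first value rested on 1 cell. One WT-labelled member held 213 UMIs of *Prg2*, the eosinophil major basic protein, 97.7% of all *Prg2* UMIs of the members of that library. That cell had 1 *Gal* and 1 *Cdkn1c* UMI and, at 11944 UMIs, was the deepest member. Without it the ratio was -2.03 (-2.99 to -1.21).

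Genes of stem and progenitor cells were low against all other cells. Of 9 tested, 4 were lower by 1.5-fold in both libraries and none higher, against 5.96% and 0.626% of all genes tested. Their list stood at -0.57 (-0.70 to -0.45) and -0.57 (-0.74 to -0.39). Against cells matched on depth and granulocyte share it stood at -0.19 (-0.36 to -0.03) and 0.23 (-0.03 to 0.48), so the direction turned in the KO-labelled library. *Cd34*, the progenitor surface protein, had 5 and 3 UMIs in members and 367 and 599 in other cells, log2 ratios of -2.43 (-4.06 to -1.19) and -3.16 (-5.44 to -1.61). *Cd48* was at -1.40 and -1.09, *Flt3*, a receptor of early progenitors, at -2.19 and -3.60, and *Bcl2*, the survival factor, had 1 and 0 UMIs against 134 and 147. Among genes of the *MLL* program *Hoxa9* was not low, at 0.17 (-0.08 to 0.40) and 0.46 (0.04 to 0.85), nor was its partner *Meis1*, at 0.08 (-0.45 to 0.56) and 0.42 (-0.38 to 1.13). The list as a whole stood at -0.17 and -0.19, close to the median of all tested genes. Ribosomal protein genes stood at -0.24 and -0.28, and all 22 were below 0 in both libraries, but against cells matched on depth and granulocyte share they stood at -0.04 and -0.03. The interferon list stood at -1.21 and -1.003, with *Ly6e* at -1.63 in both and *Oas1a* at 0.62 and 0.75. In the same matched comparison the interferon list stood at -0.68 (-0.96 to -0.40) and 0.32 (-0.07 to 0.73). The BCL2 family stood at -0.29 and -0.18, other imprinted genes at -0.45 and -0.41, B cell genes at -0.23 and -0.71, T and NK cell genes at 0.29 and 0.17, and megakaryocyte genes at 0.19 and -0.06. Mitochondrial transcripts, a sign of RNA quality, stood at -0.26 and -0.08.

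**Figure D3:**
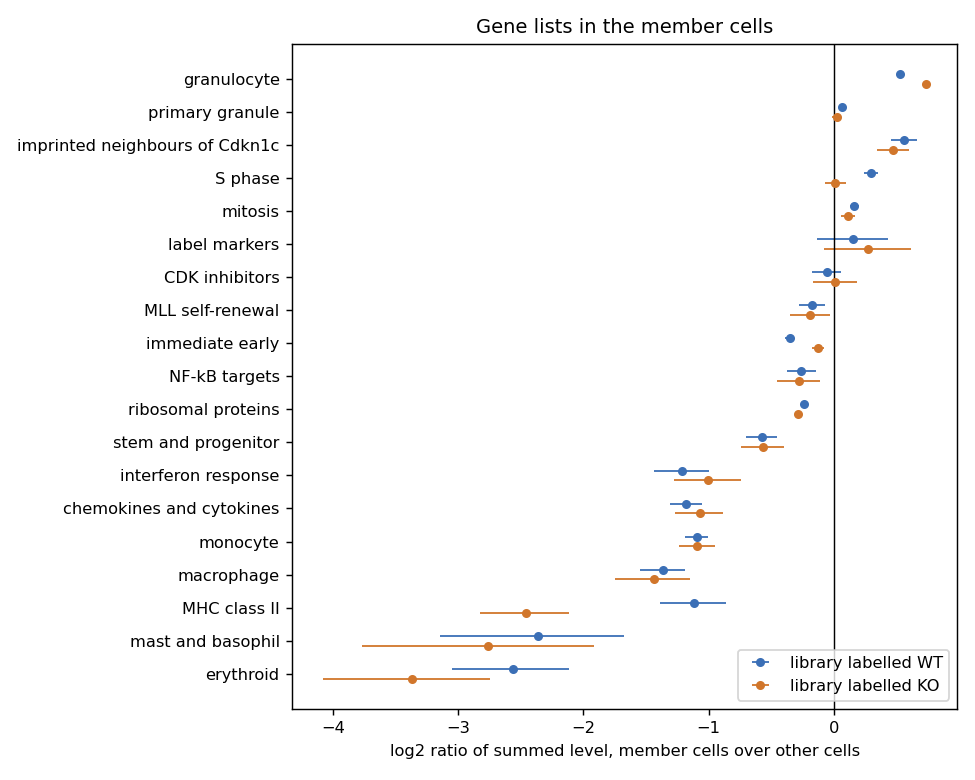
Log2 ratio of the summed level of each gene list in members over other cells of the same library (x axis), with 95% counting intervals. The granulocyte list lies at 0.53 and 0.73, *Dusp2* with *Tnf* (label markers) has intervals that cross 0, and the monocyte, macrophage, MHC class II, mast and basophil and erythroid lists lie below -1.

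*Dusp2* and *Tnf* were not clearly higher in these cells. *Dusp2* had 65 and 53 UMIs in members, 81.6 and 156 CPM, against 75.6 and 133 CPM in other cells, log2 ratios of 0.11 (-0.28 to 0.48) and 0.23 (-0.20 to 0.63). *Tnf* had 48 and 21 UMIs, log2 ratios of 0.22 (-0.24 to 0.65) and 0.40 (-0.31 to 1.04). Summed, the pair stood at 0.16 (-0.13 to 0.43) and 0.28 (-0.08 to 0.62). All 4 single ratios were above 0 and all 4 intervals included 0, so a difference from all other cells was not detectable at this depth. Against other cells matched on total UMIs the pair stood higher, at 0.50 (0.07 to 0.93) and 0.62 (0.08 to 1.18). Against cells matched on granulocyte share as well it stood at 0.41 (-0.01 to 0.83) and 0.01 (-0.48 to 0.50). With both rule genes required in a member, the pair stood at -0.054 and 0.162 against the remaining cells. With 3 or more UMIs required it stood at -0.055 and 0.051. The answer thus changed with the cells chosen and compared, and the members are called by *Gal* and *Cdkn1c* alone. Of the related lists, NF-kB targets stood at -0.26 and -0.28, MAP kinase phosphatases at -0.37 and 0.03, the TNF family at -0.30 and 0.20 and immediate early genes at -0.35 and -0.13, with *Fos*, a subunit of AP-1, at -0.57 and -0.35. No transcript of a measured galanin receptor was found. *Galr1*, *Galr2* and the related peptide gene *Galp* had 0 UMIs in all kept cells, which allows up to 3 UMIs per library. *Galr3*, another galanin receptor, was not among the genes measured.

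As a list the other inhibitors of cyclin-dependent kinases were level between members and all other cells. Of 5 tested none passed 1.5-fold in both libraries, against 0.626% higher and 5.96% lower over all genes tested. Their list stood at -0.06 (-0.17 to 0.06) and 0.01 (-0.17 to 0.19). *Cdkn2c* (p18), the member with the most UMIs, was at 0.05 (-0.12 to 0.23) and 0.12 (-0.24 to 0.45). *Cdkn1a* (p21) was at 0.16 (-0.26 to 0.55) and -0.08 (-0.58 to 0.39), and *Cdkn2d* (p19) at -0.27 (-0.49 to -0.07) and 0.13 (-0.13 to 0.39). *Cdkn1b* (p27) had 18 and 2 UMIs in members. Many members had no *Cdkn1c* UMI, so the list was also compared by *Cdkn1c*. Cells with *Cdkn1c* and no *Gal* stood at 0.22 (0.12 to 0.32) and 0.36 (0.20 to 0.51) above depth-matched cells with neither gene. Members with both genes, paired on total UMIs with members with *Gal* alone, stood at 0.14 (-0.10 to 0.38) and 0.43 (0.01 to 0.86). G1 cyclins and kinases had intervals of -0.12 to 0.11 and -0.15 to 0.19 around 0.

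Cells with *Cdkn1c* held more transcripts of mitotic genes. In WT-labelled members with both genes the mitosis list made up 8693 CPM, against 5880 CPM in members with *Gal* alone, a log2 ratio of 0.56 (0.49 to 0.64). For the KO-labelled library the values were 9643 and 7707 CPM, a log2 ratio of 0.32 (0.21 to 0.43). Members with both genes were deeper, and pairing members 1 to 1 on total UMIs gave 0.58 (0.50 to 0.66) and 0.31 (0.19 to 0.44). The pairing did not make depth equal, with medians of 3407.5 against 3001.5 UMIs and 2423 against 2225 UMIs. The same was seen outside the members. Cells with *Cdkn1c* and no *Gal* stood at 0.48 and 0.51 above cells with neither gene, and at 0.26 (0.23 to 0.29) and 0.29 (0.24 to 0.33) above depth-matched cells with neither. Granulocyte transcripts also differed in that last comparison, at 0.70 and 0.63, and their part in it was not tested. The S phase list stood at -0.30 (-0.42 to -0.19) and -0.06 (-0.26 to 0.13) in the paired members, an interval that included 0 in the KO-labelled library, and at -0.08 and -0.12 in the depth-matched cells outside them. Granulocyte transcripts did not divide the members in this way, with 160113 and 162233 CPM in members with both genes and with *Gal* alone of the WT-labelled library.

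**Figure D4:**
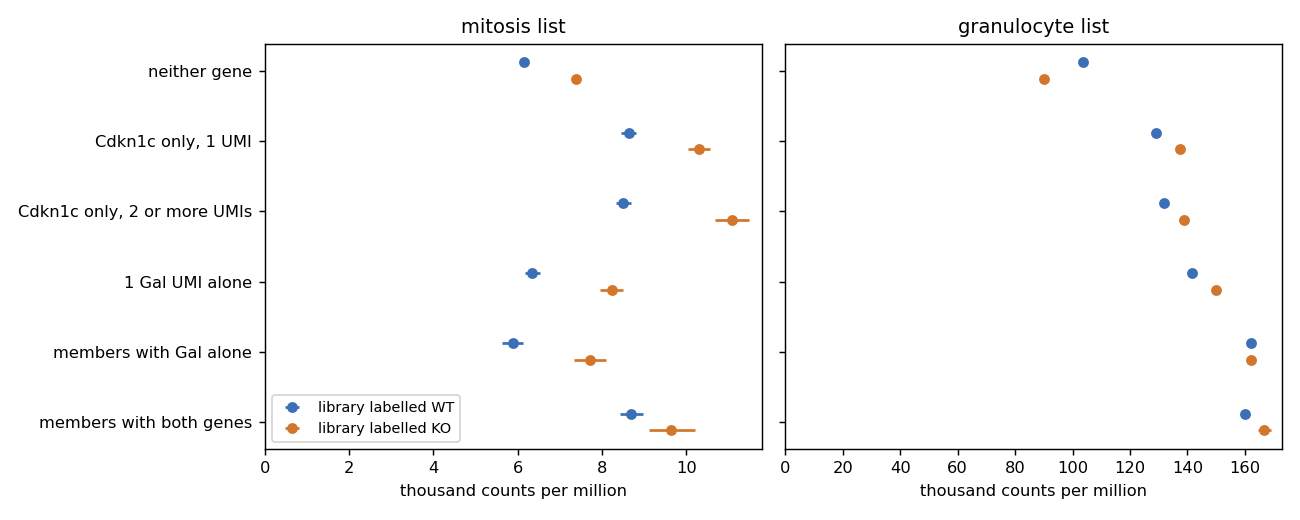
Summed level of the mitosis list (left) and the granulocyte list (right) in CPM (axis in units of 1000), by UMIs of the rule genes, with 95% counting intervals. Mitosis transcripts are higher in cells with *Cdkn1c* alone than in cells with neither gene, and in members with both genes than in members with *Gal* alone (8693 and 9643 against 5880 and 7707 CPM), while granulocyte transcripts are lowest in cells with neither gene.

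Against all other cells of their library, members stood at 0.16 (0.13 to 0.20) and 0.11 (0.06 to 0.17) for mitosis and at 0.30 (0.24 to 0.35) and 0.01 (-0.07 to 0.10) for S phase. None of the 26 S phase and 35 mitosis genes tested was 1.5-fold or more higher in both libraries, against 0.626% of all genes tested. Against depth-matched other cells the mitosis ratios were 0.01 and 0.12 and the S phase ratios 0.07 and -0.19. With every cell thinned to 1000 UMIs, which left 41 and 50 cells that met the rule, the mitosis ratios were -0.59 and -0.21 and the S phase ratios -0.33 and -0.37. The direction of the cell cycle ratios therefore depended on how depth was made equal.

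Cells just outside the rule were close to the members in granulocyte transcripts, but not in every list. For the WT-labelled library the granulocyte list made up 103645 CPM of cells with neither gene, 129121 CPM of cells with 1 *Cdkn1c* UMI only, 141758 CPM of cells with 1 *Gal* UMI only, and 151942, 170793 and 159933 CPM of members with 2, 3 to 5, and 6 or more UMIs. For the KO-labelled library the values were 89972, 137368, 149867, 166306, 160683 and 162095 CPM. For this list the step between just outside and just inside the rule was smaller than that between cells with neither gene and cells with 1 UMI. MHC class II genes differed in the KO-labelled library. They made up 1252 CPM (1147 to 1364) of cells with 1 *Gal* UMI only, 1202 CPM of cells with neither gene and 189 CPM (133 to 261) of members with 2 UMIs. In that library *Cd74* was detected in 9.18% of other cells and *H2-Aa* in 4.05%. How many cells of each class held these UMIs was not counted, and the intervals leave out the spread between cells. For the WT-labelled library cells with 1 *Gal* UMI only stood at 156 CPM (130 to 187) and members with 2 UMIs at 192 CPM (149 to 242). Among the 30 nearest cells of a member in the same library, by 20 principal components computed without the rule genes, a mean of 12.4% were members in the WT-labelled library, 2.21 times their share of the library. For the KO-labelled library it was 6.13%, 1.59 times their share. Among 30 neighbours the highest share of members was 36.7% and 20%, and 14 and 23 members had none. Among the 10 nearest cells the highest share was 70% and 30%, and 65 members in each library had none. On thinned counts the means were 11.2% and 5.75%.

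Single genes gave few high values. Of 5270 genes tested, 33 (0.626%) were 1.5-fold or more higher in members in both libraries and 314 (5.96%) were 1.5-fold or more lower. In 1 library alone, 140 and 319 genes were higher and 616 and 1124 lower, and 61.1% of genes had the same sign in both. The 15 genes with the largest ratios by the smaller of the 2 libraries had modest counts, apart from *Fcnb*. *Fcnb*, ficolin B, a pattern recognition lectin of immature myeloid cells, had 1120 and 720 UMIs in members, 1406 and 2122 CPM against 804 and 1213 CPM, a log2 ratio of 0.81 in both libraries (0.72 to 0.90 and 0.70 to 0.92).

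*Cyp26a1*, which degrades retinoic acid, was at 1.59 (1.16 to 1.99) and 0.84 (0.00 to 1.57). *Ffar2*, a receptor for short-chain fatty acids found on neutrophils, was at 0.86 and 1.60. *Myl10*, a myosin light chain, was at 1.05 and 0.95, *Cystm1* at 0.999 and 1.25, and *Smim6* at 1.14 and 0.80. *Tuba8*, a tubulin, was at 0.90 and 0.93. *Unc13d*, needed for granule release, was at 0.80 and 0.88, and *Dgat2*, which makes triglyceride, at 0.75 and 0.90. *Cenpk* and *Zw10*, proteins of the kinetochore, were at 0.86 and 0.92 and at 0.82 and 1.299. *Fmo5*, *Faap24*, *B930036N10Rik* and *Atpaf1* filled the rest, between 0.74 and 1.18. The intervals of *Unc13d*, *Smim6*, *Dgat2* and *Atpaf1* included 0 in the KO-labelled library.

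Most of the 15 lowest genes were those of other lineages. The globins *Hbb-bt*, *Hbb-bs*, *Hba-a1* and *Hba-a2* had 0 to 6 UMIs in members and 473 to 1693 in other cells, and reads of these near-identical pairs could be split between copies. These ratios rested on few cells. *Hbb-bs* was detected in 0.926% of members and 0.521% of other cells (WT-labelled) and in 4.38% and 2.11% (KO-labelled). *Hbb-bt* was more frequent in members of the WT-labelled library only, and *Hba-a1* and *Hba-a2* in neither. *Cd74*, *H2-Aa*, *Ms4a4c*, *Wfdc17*, *Ctss*, *Mcpt8*, *Cpa3*, *Cd34*, *Tpm4*, *Stxbp6* and *Sirpb1c* made up the rest. *Mcpt8*, a basophil protease, was at -3.28 (-4.73 to -2.15) and -3.47 (-5.35 to -2.11), and *Wfdc17* at -3.46 (-4.22 to -2.80) and -3.91 (-6.19 to -2.36).

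**Figure D5:**
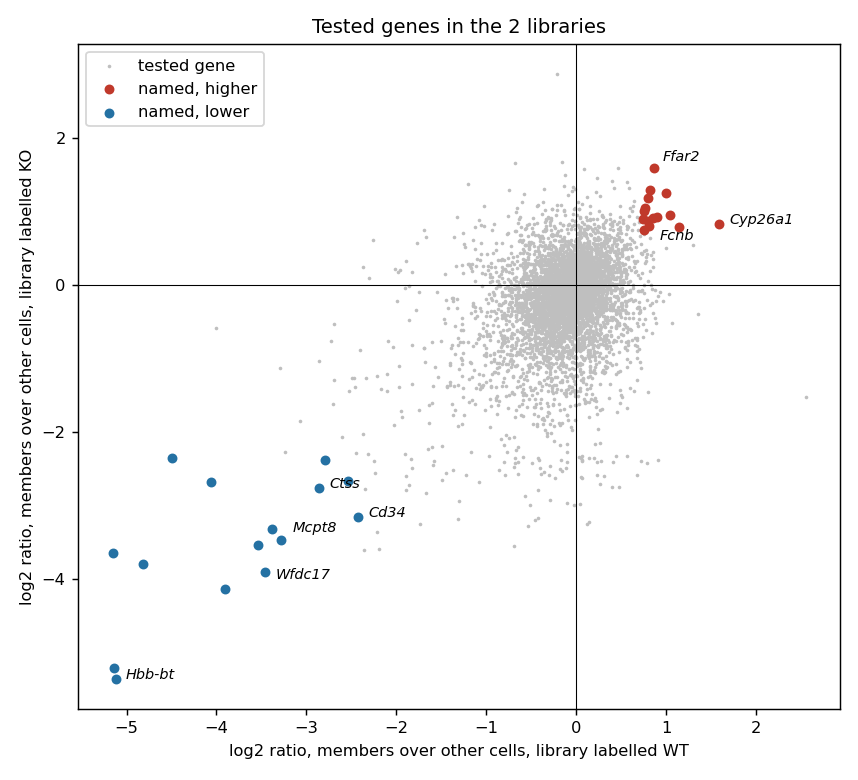
Log2 ratio of each of 5270 tested genes in members over other cells, WT-labelled library (x axis) against KO-labelled library (y axis), with genes at 0 UMIs in members set to 3 counts. *Fcnb* lies at 0.81 in both libraries, and the named globin, MHC class II and monocyte genes lie far below 0 in both. The globin ratios rest on few cells.

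Fewer of these genes passed 1.5-fold when members were set against cells of like granulocyte share. Each member was matched to 1 other cell of its library on total UMIs and granulocyte share, a comparison added after the values were seen. Of the 33 high genes 29 could be tested and 7 stayed 1.5-fold or more higher in both libraries: *Cenpk*, *Hcfc1r1*, *Lpcat2*, *Myl10*, *Nod1*, *Unc13d* and *Zw10*. Of 314 low genes 206 could be tested and 62 stayed lower. In all, 49 of 5129 genes were higher and 198 lower in this comparison. *Hcfc1r1* had 99 and 39 UMIs in members against 48 and 14 in matched cells, log2 ratios of 1.04 (0.53 to 1.57) and 1.47 (0.56 to 2.46), and was the 1 gene of the 7 with intervals above 0 in both libraries. *Ffar2* and *Smim6* fell short of the expected count there, with 4 and 2 UMIs in KO-labelled matched cells. Their intervals were also above 0 in both libraries. *Ffar2* was at 1.09 (0.13 to 2.12) and 1.99 (0.36 to 4.03), and *Smim6* at 0.97 (0.29 to 1.68) and 2.80 (0.68 to 5.98). *Fcnb* went to 0.08 (-0.04 to 0.20) and 0.23 (0.07 to 0.39). *Cyp26a1* stayed at 1.43 (0.71 to 2.18) in the WT-labelled library and was at 0.18 (-0.95 to 1.33) in the KO-labelled library. The monocyte list stayed lower, at -0.35 (-0.47 to -0.23) and -0.40 (-0.60 to -0.21), as did the macrophage list at -0.62 and -0.86.

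*Cdkn1c* lies in an imprinted cluster, and its neighbours were looked at for that reason. Their list stood at 0.56 (0.46 to 0.66) and 0.48 (0.35 to 0.60), but *Cd81*, a tetraspanin that lies at chr7:143052739-143067934 and is abundant in myeloid cells, gave 681 of 852 and 480 of 535 UMIs. Its own ratios were 0.67 (0.55 to 0.79) and 0.52 (0.39 to 0.66). Without it the list stood at 0.20 (-0.04 to 0.42) and 0.11 (-0.31 to 0.50). Against cells matched on depth and granulocyte share *Cd81* was at 0.23 (0.07 to 0.39) and 0.22 (0.03 to 0.42). *Igf2*, *H19* and *Kcnq1* had 0 UMIs in all kept cells, and *Kcnq1ot1*, the antisense transcript of the cluster, had 15 and 3 in members.

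Between the libraries, members stood close in granulocyte level at own depth, at 161073 CPM in the WT-labelled library and 163974 CPM in the KO-labelled library, a log2 ratio of KO over WT of 0.03 (0.01 to 0.04). The direction turned in 4 of 6 alternatives, and with cells thinned to 1000 UMIs the ratio was -0.52, so no order is read from it. The other cells stood at -0.18 (-0.18 to -0.17). Of 2368 genes with an expected count of 20 or more UMIs in the members of each library, 226 (9.54%) were 1.5-fold or more higher in KO-labelled members and 166 (7.01%) were lower. Of these, 213 and 121 had the same sign in the other cells, where 117 and 52 of the 2368 genes passed 1.5-fold. The pool, its depth and the genotype cannot be told apart.

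*Spp1*, osteopontin, had 32 UMIs (40.2 CPM) in WT-labelled members and 97 (286 CPM) in KO-labelled members, a log2 ratio of 2.83 (2.24 to 3.46), and stood at 1.22 in other cells. *Osm*, oncostatin M, a cytokine of myeloid cells, went from 49.0 to 174 CPM, at 1.83 (1.22 to 2.45) against 0.63 in other cells. *Mtf1*, the metal-responsive transcription factor, was at 1.86 (1.18 to 2.56) against 0.71, *Pkig* at 1.68 against 0.51 and *Mkrn1* at 1.53 against 0.59. *Retnlg*, also among the 8 highest, had 9 UMIs in WT-labelled and 12 in KO-labelled members, *Hbb-bs* had 2 and 6, and *Cd74* had 0 and 10. On the low side, *Irf8* was at -1.99 (-4.35 to -0.30) against -0.74, *Hddc2* at -1.94 (-3.89 to -0.46) against 0.28, and *Tln1*, talin, at -1.70 (-2.55 to -0.94) against -1.25. *Hspa9*, a mitochondrial chaperone, was at -1.49 (-2.38 to -0.70) against 0.07 in other cells, and *Glud1*, glutamate dehydrogenase, at -1.62 against -0.17. *1700020I14Rik*, *Milr1* and *Ptbp3* were at -1.68, -1.58 and -1.39. *Dusp2* was higher in KO-labelled members, at 0.94 (0.39 to 1.48), and to a like degree in other cells, at 0.82 (0.68 to 0.95). Ribosomal protein genes were lower, at -0.35 in members and -0.30 in other cells, and mitochondrial transcripts of the RNA quality list higher, at 0.49 and 0.31. Their part in these differences was not tested.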

How the data were processed

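Counts are UMIs per gene and cell: the authors ran Cell Ranger and deposited 1 matrix of raw counts for both libraries and 8309 called cells. The submitters' processing notes name Cell Ranger 1.3.1 and mm10, the study's methods name another Cell Ranger version, and the annotation is not given in the sources used here. The library of a cell came from the number that ends its barcode, read as in the study's published code. No column was left without a sample.

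The members, gene lists and comparisons were chosen with earlier results of these data known. UMIs of members and of other cells were summed within each library and divided as CPM. Ratios carry exact conditional binomial intervals, levels exact Poisson intervals and shares Clopper-Pearson intervals, at 95%. A gene was tested, in the sense of being counted, where 5 or more UMIs were expected in the members of both libraries from the level of other cells (20 between libraries). *Gal* and *Cdkn1c* were left out. The text names the 15 highest and 15 lowest genes by the ratio nearer 0, the 8 largest ratios each way between libraries whose interval left out 0, and the members of lists past 1.5-fold. *Hcfc1r1*, *Lpcat2* and *Nod1*, single genes of lists within 1.5-fold and *Prg2* were picked after their values were seen. With 1 library per genotype no p-value was derived.

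Cells were thinned without replacement to 1000 UMIs. Doublets were kept, and Scrublet scores (scanpy 1.11.5) served an alternative that left out the highest 5% of each library. Nearest cells used 1000 variable genes. Python 3.11.15, numpy 2.4.6 and scipy 1.17.1 were used, and the ratios were tested on simulated data.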

Additional observations from a re-analysis of the deposited data

Results flagged for a closer look

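*Gal* UMIs were present in called cells with under 500 genes, which the comparisons leave out: 17 UMIs in the WT-labelled library and 46 in the KO-labelled library, both above the 3 counts that a count of 0 allows. The eosinophil list gave log2 ratios of opposite sign in members of the 2 libraries, 2.21 in the WT-labelled library and -1.70 in the KO-labelled library. This difference between the libraries was not tested, and without the 1 cell with 213 *Prg2* UMIs the value of the WT-labelled library was -2.03.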

How the results depend on the processing

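No paired analysis was possible because each genotype had a single library, and no replicate could be left out either. Of 491 recomputed values of single lists and genes, 309 moved by less than their counting interval, 164 moved beyond it and 18 were counted as reversed. Of 81 recomputed shares, counts and granulocyte and label marker ratios, 33 stayed within their limits, 43 moved beyond them and 5 were counted as reversed. Some changes of sign are not in the reversed counts. The KO-labelled primary granule ratio went from 0.02 to -0.29 on thinned counts. The WT-labelled label marker ratio went from 0.155 to -0.054 with both genes required. With 1000 or more genes per cell the shares were 6.94% and 4.55%, the granulocyte ratios 0.74 and 1.20, their ratio between libraries in members 0.12, the low genes 183 and the WT-labelled primary granule ratio -0.037. Thinning to 1000 UMIs gave shares of 1.08% and 1.49% (log2 ratio 0.47), granulocyte ratios of 0.88 and 0.63, -0.52 between libraries, 21 high and 103 low genes, WT-labelled ratios of -0.36 (primary granule), -0.33 (S phase) and -0.59 (mitosis), and KO-labelled ratios of -0.21 (mitosis), 0.16 (immediate early) and 0.017 (*MLL* program). Requiring both genes gave 2.90% and 1.24% (-1.22), 0.50 for WT-labelled granulocyte genes, 0.059 between libraries and 168 low genes. Requiring 3 UMIs gave 2.92% and 1.44% (-1.02), 0.58 and 0.68, -0.068 between libraries and 195 low genes, and any *Gal* UMI gave 11.8% and 9.14%. Matching on total UMIs gave granulocyte ratios of 0.81 and 0.67, label marker ratios of 0.50 and 0.62, -0.091 for WT-labelled primary granule genes, 59 high genes, -0.00099 for WT-labelled *Cenpk* and 0.59 for KO-labelled *Hbb-bs*. Other cells with neither gene gave 0.64 and 0.87 and 56 high genes. Without the highest doublet scores the ratios were 0.60 and 0.71 and -0.073 between libraries, and as means over cells 0.57, 0.70 and -0.19. Matching on depth and granulocyte share, added after the data were seen, gave 198 low genes, KO-labelled ratios of 0.23 (stem), 0.0012 (immediate early), 0.32 (interferon), 0.20 (*MLL* program) and 0.99 (*Hbb-bs*), and WT-labelled ratios of -0.20 (mitosis) and 0.32 (*Cd34*). Leaving out the 1 cell rich in *Prg2*, also added later, gave -2.03 for eosinophil genes. An expectation of 20 UMIs left 6 high and 74 low genes, and of 1 UMI 249 and 570. The cause of these changes was not tested. Depth limits the rule itself, since a shallow cell without a *Gal* UMI is not shown to lack the transcript.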
